A study of Culex pipiens pallens and Culex quinquefasciatus with 12 samples.

Results

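Homeobox and other patterning transcription factors were described in larvae of the house mosquitoes *Culex pipiens pallens* and *Culex pipiens quinquefasciatus*. The genes were taken by words in the description that the deposited tables give each gene model: homeobox, homeotic, paired box, POU domain, forkhead, T-box, Sox, hairy, achaete, GATA or runt. Descriptions that also held "binding" or "interacting" were left out, which removed 3 models, a GATA-binding factor-C and 2 fork head domain DNA binding proteins. This gave 99 of 17757 gene models, and the rule reads the descriptions alone, though it was set with earlier results of these data known. RNA was sequenced from 12 libraries, 7 of *Cx. p. pallens* and 5 of *Cx. p. quinquefasciatus*, and each library was made from the poly(A) RNA of 30 pooled larvae, without strand information. The labels give the subspecies and nothing else that separates the libraries: no treatment, sex, larval age or collection is stated. The series title speaks of levels of resistance, but no library is tied to one. Nothing in the labels shows that the pools were raised apart, so each p-value reflects the spread among these pools alone, which may be technical.

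Patterning transcription factors bind DNA and switch other genes on or off according to position in the body. Hox proteins give the segments along the head-to-tail axis their identity, and the cofactors homothorax and extradenticle join them on DNA. Paired box, POU, forkhead, T-box, Sox, hairy-type, achaete-scute, GATA and runt proteins carry other DNA-binding domains and act in segmentation, nervous system, eye, heart, gut and fat body. In a larva many of these genes work in a small share of the cells, such as neurons and the imaginal discs that later form adult structures. These roles are known chiefly from *Drosophila*.

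The pallens libraries held 3.88 to 4.86 M counted reads, and the quinquefasciatus libraries 4.41 to 5.18 M. The 99 patterning factors took a small part of them, between 0.0493 and 0.0819% of the reads in pallens libraries (median 0.0580%) and between 0.0503 and 0.0881% in quinquefasciatus libraries (median 0.0593%). A count of 0 allows up to 3 reads, which is 0.579 to 0.772 CPM in these libraries, CPM being the count scaled to a common library total. No libraries were alike within sampling noise: even the closest, pallens 6 and 7, had a chi-square of 15.0 per degree of freedom over genes. The next closest pair, at 17.6, crossed the subspecies (pallens 1 and quinquefasciatus 5), and without this pair 366 of 10764 genes were called, against 57 of 10617 with it. Leaving out a pair found alike across the subspecies in these same counts favours a wider gap. Calls made without the pair are therefore no separate support for a difference.

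Patterning factors were read at lower levels than gene models at large. Levels are given here as the deposited RPKM, reads scaled to the length of the gene model and to the library's total, because this unit allows genes of different length to be compared. The median over the 99 factors of the mean RPKM was 1.52, against 3.84 over all gene models, and 42.4% of the factors averaged under 1 RPKM, against 30.9% of all models. Reads were found in all 12 libraries for 57 factors, which is 57.6% of them, against 67.5% of all models. The factors' models were of ordinary length, with a median of 1065 bases against 1080 for all models. They were spread over more of the genome, however, with a median span of 5424 bases against 2484, and the median ratio of span to length was 5.24 against 1.85. For 62 of the 99 the deposited gene ontology text named DNA binding or transcription factor activity, which is 62.6%, against 2.30% of all models.

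A few factors carried much of the signal. Of 35182 reads on the 99 factors over the 12 libraries, 43.3% were on the 5 with the most reads. By mean RPKM the highest was prospero/prox-1 (CPIJ004053) at 62.1, a homeodomain protein that in *Drosophila* moves into the daughters of neural stem cells. GATAa2 (CPIJ008350) followed at 55.9 RPKM, then the gene bobby sox protein (CPIJ005582), an HMG-box protein, at 31.0 and protein hairy (CPIJ004757), a segmentation repressor, at 30.7. A model described only as homeobox protein (CPIJ002050) averaged 22.3 RPKM, forkhead box protein CPIJ002020 22.2 and pax-6 (CPIJ006382), the eye and head factor, 18.7. At the other end, Pax-7 (CPIJ019791) had 1 read over all 12 libraries, and 12 factors had fewer than 12 reads in all.

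**Figure D1:**
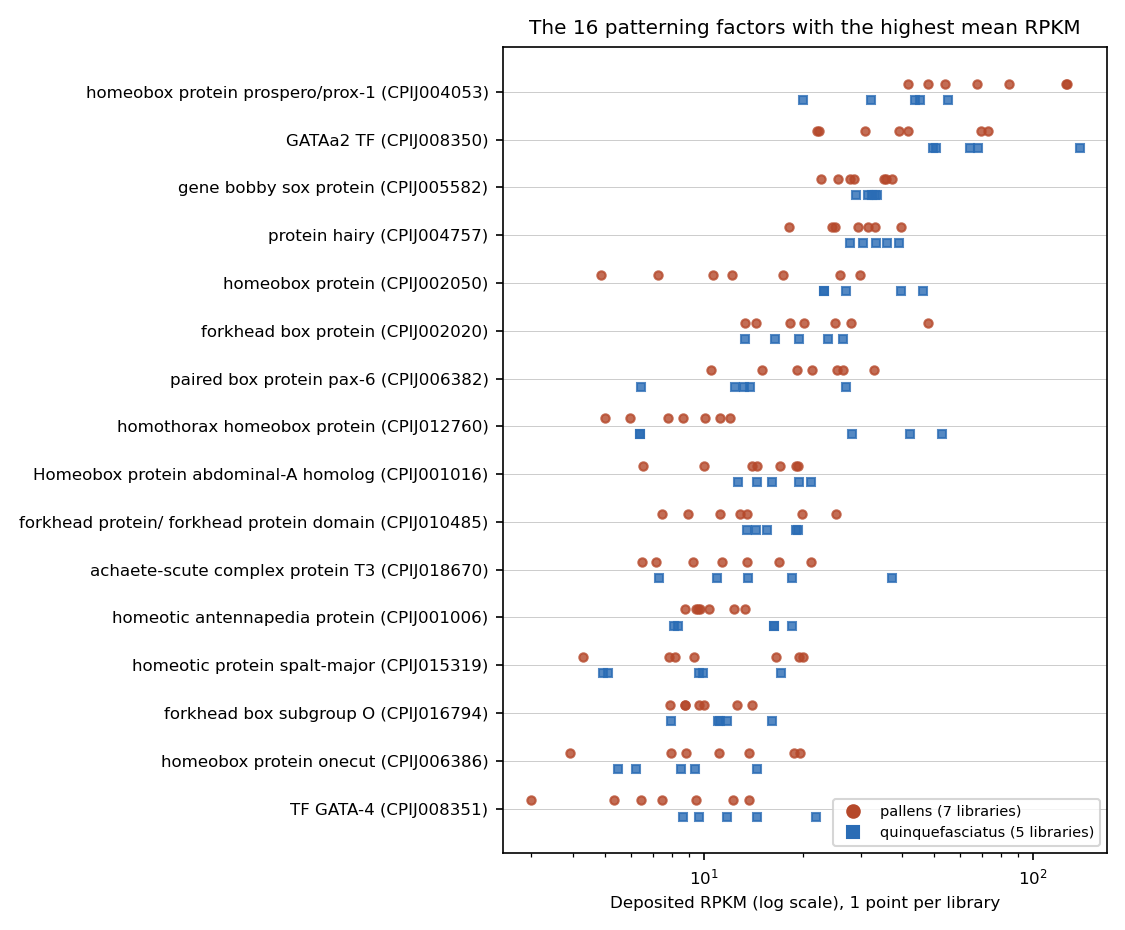
Deposited RPKM on a log scale for the 16 patterning factors with the highest mean, 1 point per library, with pallens (circles) above quinquefasciatus (squares) in each row. Prospero/prox-1 and GATAa2 stand at the top with means of 62.1 and 55.9 RPKM, and the points of the subspecies overlap in every row.

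The comparison the labels allow is pallens against quinquefasciatus. No patterning factor passed the test. Of the 99 factors, 42 had enough reads to be tested, and these held 94.2% of the factors' reads. With edgeR's quasi-likelihood test and Benjamini-Hochberg adjustment over all genes tested, 0 of the 42 were called at an adjusted p under 0.05, beside 0.537% of all 10617 genes tested (57 genes). At an unadjusted p under 0.05 there were 7 factors, or 16.7%, beside a background of 13.0%, and DESeq2 called 1 factor of the 80 to which it gave an adjusted p, beside 2.35% of 13941 such genes (328 genes). Of the 7, 2 were higher in pallens, where the background is 6.55%, and 5 were lower, where it is 6.46%. The libraries of the subspecies were fully apart for 0 of the 42 factors, against 1.22% of all genes tested. Both figures were higher with libraries left out: 2 of 41 factors and 2.99% of all genes without pallens 1, 1 of 43 and 3.60% without quinquefasciatus 5, and 4 of 41 and 5.88% without both. That pair was the closest across the subspecies, so leaving it out favours a wider gap.

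Differences were mostly small. The log2 change, pallens minus quinquefasciatus, was positive for 18 factors and negative for 24, with a median of -0.11, against 0.02 for all genes tested. It lay within 0.5 of 0 for 32 factors, which is 76.2%, against 74.9% of all genes tested. For 27 factors the whole 95% interval lay within 1 of 0, and for the other 15 it reached past 1 on a side. The median standard error was 0.26, against 0.27 for all genes tested, and the spread inside a subspecies, as the SD of log2(CPM + 1), had a median of 0.40, against 0.41.

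**Figure D2:**
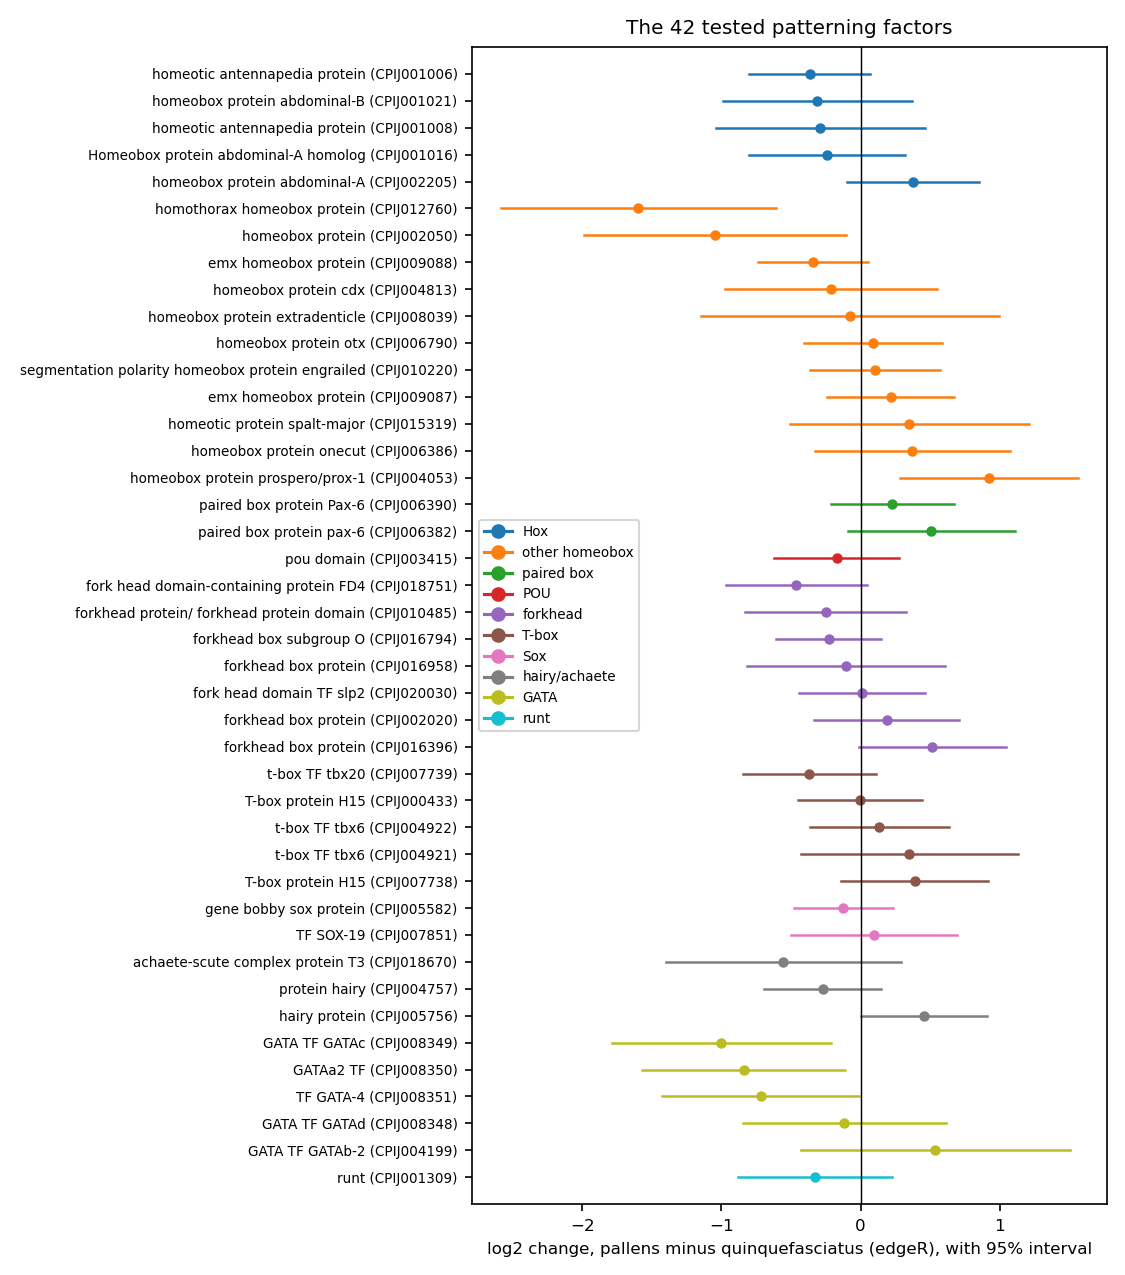
Log2 change (pallens minus quinquefasciatus) with its 95% interval for the 42 tested factors, coloured by family. The changes run between -1.60 (homothorax) and 0.93 (prospero/prox-1), and 3 of the 5 GATA factors have intervals below 0.

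Homothorax had the smallest p of the 42 tested factors. It is a TALE-class homeodomain protein, which in *Drosophila* carries extradenticle into the nucleus and marks the inner parts of legs and antennae. The model CPIJ012760 lies on supercont3.402, positions 122898 to 130140, plus strand, and is 513 bases long over a span of 7243. It had 2.52 CPM in the lowest pallens library, a median of 4.68 and 6.04 in the highest, against 13.9, 25.3, 20.0, 3.63 and 3.93 CPM in quinquefasciatus 1 to 5. Quinquefasciatus 1, 2 and 3 stood above every pallens library, while quinquefasciatus 4 and 5 fell inside the pallens range, so the subspecies overlapped. The mean was 4.42 ± 1.40 CPM in pallens, against 13.4 ± 9.63 CPM in quinquefasciatus (SD, n = 7 and 5), a log2 change of -1.60 (SE 0.46, interval -2.58 to -0.61, adjusted p = 0.155 by edgeR).

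The call on homothorax turned on the method and on which libraries were kept. The adjusted p was 0.0403 with DESeq2, 0.0432 without quinquefasciatus 5 and 0.0478 without both pallens 1 and quinquefasciatus 5. These settings called 2.35, 1.93 and 3.40% of all genes, more than the 0.537% of the main test. The last leaves out the closest pair across the subspecies, which favours a call. Over all 24 alternatives the adjusted p ran between 0.0403 and 0.386, and the log2 change between -1.84 and -1.14, negative each time. The reads covered 53.0 to 79.3% of the model in pallens libraries, against 50.5, 64.9, 75.8, 42.9 and 70.2% in quinquefasciatus 1 to 5. They numbered 10 to 28 in pallens libraries, against 73, 120, 112, 17 and 15 in quinquefasciatus 1 to 5. The higher counts of quinquefasciatus 1 to 3 thus covered no more of the model than the pallens range. A second homothorax model, CPIJ012759, lies next to it on the same strand at positions 100886 to 106245 and had 50 reads in all, too few to be tested. Its levels were 0.505 to 1.55 CPM in pallens libraries and 0.214 to 1.05 CPM in quinquefasciatus libraries, so it did not share the high values of quinquefasciatus 1 to 3.

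Extradenticle (CPIJ008039), the partner of homothorax, showed no such split. Its lowest, median and highest levels were 2.66, 4.04 and 6.76 CPM in pallens, against 3.44, 2.32, 12.9, 2.35 and 1.57 CPM in quinquefasciatus 1 to 5. The value of 12.9 CPM, from 72 reads in quinquefasciatus 3, was the highest of the 12. The log2 change was -0.07 (SE 0.50), with an interval of -1.14 to 1.0. A related TALE-class model, pknox1 (CPIJ015190), had 46 reads in all and was not tested. It had 37 reads over the 7 pallens libraries and 9 over the 5 quinquefasciatus libraries, and without the filter on low counts its adjusted p was 0.210.

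Prospero/prox-1 was the tested factor with the largest positive difference. Model CPIJ004053 lies on supercont3.59, positions 590559 to 595982, plus strand. Its lowest, median and highest values were 24.0, 30.4 and 60.7 CPM in pallens, against 15.9, 26.2, 20.5, 11.3 and 27.8 CPM in quinquefasciatus 1 to 5. Pallens 3, 6 and 7 were the highest of the 12, and pallens 1 and 5 fell inside the quinquefasciatus range. The mean was 38.6 ± 15.1 CPM in pallens, against 20.3 ± 6.91 CPM in quinquefasciatus (SD, n = 7 and 5), a log2 change of 0.93 (SE 0.30, interval 0.29 to 1.56, adjusted p = 0.216 by edgeR). Over the 24 alternatives the change stayed between 0.62 and 1.14, and the adjusted p between 0.0798 and 0.470.

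A model called protein prospero (CPIJ004052) lies just upstream on the same strand, at positions 578992 to 589416, and is not among the 99 because its description holds none of the words. It averaged 143 ± 65.6 CPM in pallens, against 84.7 ± 34.3 CPM in quinquefasciatus, a log2 change of 0.76 (SE 0.34, adjusted p = 0.384). The values of 212 CPM in pallens 6 and 250 CPM in pallens 7 were again the highest. The summed RPKM of 18 neuron marker genes was 164 to 223 in pallens and 160 to 207 in quinquefasciatus, with 223 in pallens 7 and 203 in pallens 6. The order was not that of prospero/prox-1 throughout: the sum was 220 in pallens 2, which was not among the highest for prospero/prox-1, and lowest within pallens, at 164, in pallens 3, which was. The part of neuron content in the prospero difference was not tested. In pools of whole larvae, fewer cells of a type and less RNA per cell cannot be told apart.

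The homeobox protein CPIJ002050 on supercont3.21 (positions 18366 to 29855, plus strand) is not tied to a named gene by its description. It had 2.56, 5.54 and 16.9 CPM in the lowest, median and highest pallens libraries, against 12.6, 20.9, 10.4, 12.4 and 23.1 CPM in quinquefasciatus 1 to 5. Pallens 1 and 4, with 16.9 and 13.2 CPM, were among the quinquefasciatus values and the other pallens libraries were below them all. The mean was 7.65 ± 5.40 CPM in pallens, against 15.9 ± 5.70 CPM in quinquefasciatus (SD, n = 7 and 5), a log2 change of -1.05 (SE 0.44, interval -1.99 to -0.11, adjusted p = 0.333 by edgeR).

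**Figure D3:**
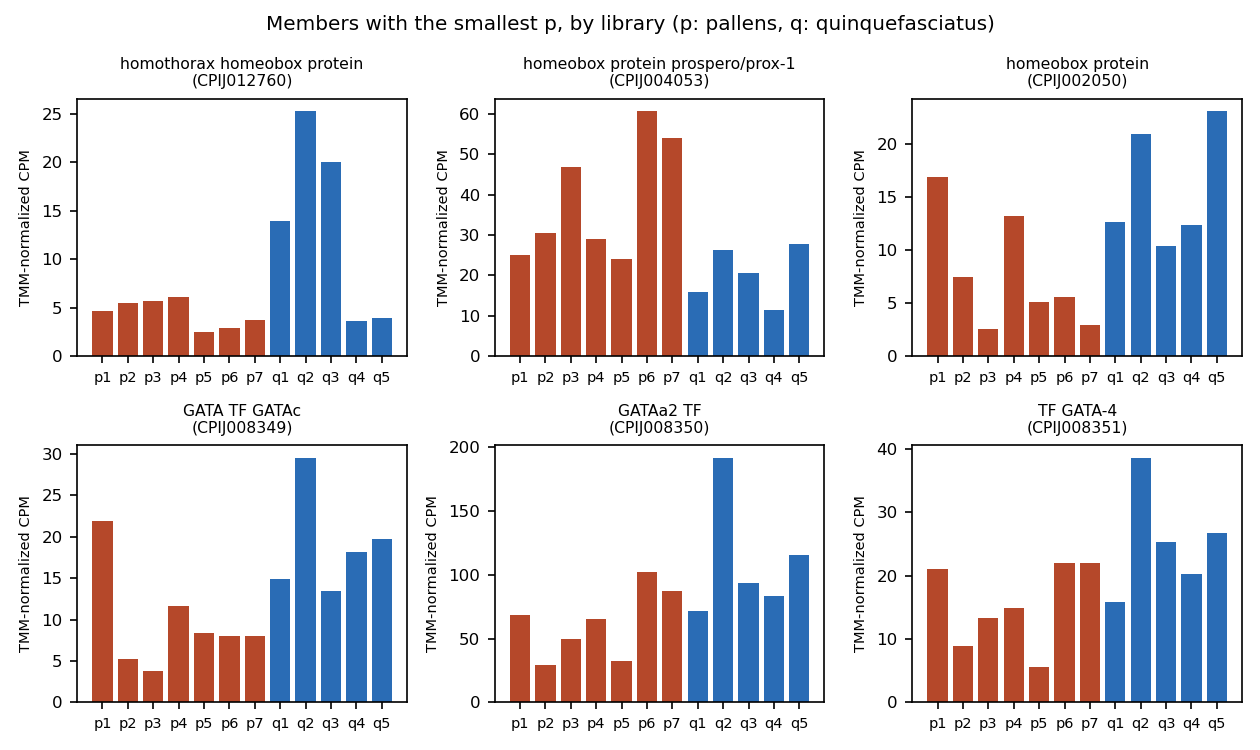
TMM-normalized CPM of 6 of the 7 factors with an unadjusted p under 0.05, 1 bar per library, with pallens (p1 to p7) left of quinquefasciatus (q1 to q5). Homothorax is high in quinquefasciatus 1 to 3 only, prospero/prox-1 is highest in pallens 3, 6 and 7, and in every panel the subspecies overlap.

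The GATA factors were the family with the lowest median log2 change, -0.72 over 5 tested factors. GATA proteins are zinc finger factors, known in insects for work in fat body, gut and blood cells, and in mosquitoes for the control of yolk protein genes. All 5 were tested, 1 had a positive and 4 a negative change, 0 were called and 3 had an unadjusted p under 0.05. Over all genes tested, 0.537% were called and 13.0% had such a p. The models GATAd (CPIJ008348), GATAc (CPIJ008349), GATAa2 (CPIJ008350) and GATA-4 (CPIJ008351) lie side by side on the minus strand of supercont3.176, between positions 470098 and 648510, and GATAb-2 (CPIJ004199) lies on supercont3.71.

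GATAc had 3.85, 8.04 and 21.8 CPM in the lowest, median and highest pallens libraries, against 14.9, 29.5, 13.4, 18.1 and 19.7 CPM in quinquefasciatus 1 to 5. Pallens 1, at 21.8 CPM, was the only pallens library above the lowest quinquefasciatus one. GATAc had a log2 change of -1.0 (SE 0.36, interval -1.79 to -0.21, adjusted p = 0.264 by edgeR), on means of 9.56 ± 5.96 CPM in pallens, against 19.1 ± 6.33 CPM in quinquefasciatus (SD, n = 7 and 5). Without pallens 1 the adjusted p was 0.0325 and the change -1.34, a setting that called 2.18% of all genes. Without both pallens 1 and quinquefasciatus 5, the closest pair across the subspecies, the adjusted p was 0.0369, beside 3.40% of all genes called. Leaving out such a pair favours a call. Over the 24 alternatives the adjusted p ran between 0.0325 and 0.466.

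GATAa2 was the most abundant GATA factor. It had 29.5, 65.2 and 102 CPM in the lowest, median and highest pallens libraries, against 71.4, 192, 93.8, 83.7 and 115 CPM in quinquefasciatus 1 to 5. Quinquefasciatus 2 stood well above the rest, and pallens 6 and 7, at 102 and 87.1 CPM, lay among the quinquefasciatus values. GATAa2 had a log2 change of -0.84 (SE 0.34, interval -1.57 to -0.11, adjusted p = 0.313 by edgeR).

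GATA-4 followed much the same order of libraries. It had 5.55, 14.9 and 22.0 CPM in the lowest, median and highest pallens libraries, against 15.9, 38.6, 25.4, 20.3 and 26.7 CPM in quinquefasciatus 1 to 5. Its log2 change was -0.72 (SE 0.33, interval -1.43 to -0.01, adjusted p = 0.377 by edgeR), and reads covered on average only 33.0% of its model. Quinquefasciatus 2 was the highest library for all 3 of these models. Without it, 0 of the GATA factors had an unadjusted p under 0.05, and the log2 changes became -0.79 (GATAc), -0.55 in the case of GATAa2 and -0.52 in that of GATA-4.

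The other GATA models did not follow these. GATAd had 2.46 ± 1.01 CPM in pallens, against 2.65 ± 1.01 CPM in quinquefasciatus (SD, n = 7 and 5), a log2 change of -0.12 (SE 0.34). GATAb-2 had 3.54 ± 1.51 CPM in pallens, against 2.48 ± 1.68 CPM in quinquefasciatus, a change of 0.54 (SE 0.45, adjusted p = 0.612). Both intervals, -0.84 to 0.61 for GATAd and -0.43 to 1.51 for GATAb-2, include 0.

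Tissue markers moved with some of these values. The summed RPKM of 107 midgut genes (trypsins, chymotrypsins and peritrophins, 61 of them read in all 12 libraries) was 4443 to 13135 in pallens and 9733 to 16214 in quinquefasciatus. In pallens it was highest in pallens 1 and 4, at 13135 and 10319, which are also the pallens libraries highest in CPIJ002050 and GATAc. The order was not the same throughout. Pallens 3 came next in the midgut sum, at 8417, but was the lowest of the 12 in CPIJ002050 (2.56 CPM) and GATAc (3.85 CPM). Quinquefasciatus 2 had the lowest midgut sum of its subspecies, at 9733, but the highest GATAc value, 29.5 CPM. The summed RPKM of 135 cuticle genes (54 of them read in all 12 libraries), which are switched on around the moult, was 47904, 20755 and 37081 in pallens 2, 3 and 5 and 3339 to 7325 in the other pallens libraries, against 22323 in quinquefasciatus 2 and 2465 to 7901 in the other quinquefasciatus libraries. GATAa2 and GATA-4 were lowest in pallens 2, 3 and 5, but highest in quinquefasciatus 2. Their part in the differences was not tested. At an unadjusted p under 0.05 by edgeR, 1 of 54 tested midgut genes was higher and 14 were lower in pallens, and 10 of 70 tested cuticle and moult genes were higher and 0 lower. Over all genes tested, 6.55% were higher and 6.46% lower at that p. The smallest p values of the 7 marker lists belonged to a chymotrypsinogen of the midgut list (CPIJ002139, log2 change -1.12, adjusted p = 0.0535), a salivary lipase (CPIJ005463, -1.38, adjusted p = 0.0692), a cuticle protein (CPIJ001839, 3.15, adjusted p = 0.139), a tropomyosin (CPIJ017856, 1.07, adjusted p = 0.201), a synaptotagmin (CPIJ004781, 0.60, adjusted p = 0.261), a larval serum protein (CPIJ006538, -1.42, adjusted p = 0.403) and a phenoloxidase (CPIJ016566, -0.25, adjusted p = 0.759). The tropomyosin went against its own list: of 20 tested muscle genes 5 had a positive and 15 a negative change, with a median of -0.11. It had 8.91 CPM in quinquefasciatus 5, against 2.32 to 2.50 CPM in the other quinquefasciatus libraries.

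The 9 Hox models were a group of low to middling level. Of these, 7 lie on the minus strand of supercont3.12 in the order deformed, antennapedia, abdominal-A and abdominal-B, and 5 of the 9 were tested. Deformed acts in the head, antennapedia in the thorax, and abdominal-A and abdominal-B in the abdomen. Of the 5 tested, 1 had a positive and 4 a negative log2 change, with a median of -0.29, and 0 were called or had an unadjusted p under 0.05.

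By mean RPKM the models described as trunk genes led. Abdominal-A (CPIJ001016) averaged 15.4 RPKM and antennapedia (CPIJ001006) 11.8, while a second abdominal-A model on supercont3.29 (CPIJ002205) averaged 9.53 and abdominal-B (CPIJ001021) 4.97. A further abdominal-B model (CPIJ001022) averaged 2.36 RPKM from 19 reads, a further antennapedia model (CPIJ001008) 2.11, and the deformed models 1.51 (CPIJ001004) and 0.303 (CPIJ001005). The antennapedia model on supercont3.1499 (CPIJ019078) averaged 0.233 RPKM. The description alone does not show whether models of the same name are parts of the same gene or separate copies. Most of these names are marked putative, and whether each, such as antennapedia for CPIJ001006, is the right one was not tested.

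Antennapedia (CPIJ001006) had 9.22, 12.3 and 15.1 CPM in the lowest, median and highest pallens libraries, against 17.8, 19.4, 17.0, 10.5 and 11 CPM in quinquefasciatus 1 to 5. Quinquefasciatus 1 to 3, the libraries high in homothorax, were the highest of the 12 here too, and quinquefasciatus 4 and 5 lay inside the pallens range. The log2 change was -0.37 (SE 0.20, interval -0.80 to 0.07, adjusted p = 0.448 by edgeR). Abdominal-A (CPIJ001016) was even over 10 libraries, at 9.93 to 12.7 CPM, and lower in pallens 6 and 7, at 3.99 and 5.49 CPM. Its log2 change was -0.24 (SE 0.26), and 0.02 when pallens 6 and 7 were left out. The summed RPKM of 12 larval storage protein genes was also lowest in pallens 6 and 7, at 19218 and 17870, against 44697 or more in every other library. Its part in the abdominal-A values was not tested. The second abdominal-A model, CPIJ002205, had the positive change, 0.38 (SE 0.22, adjusted p = 0.476).

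**Figure D4:**
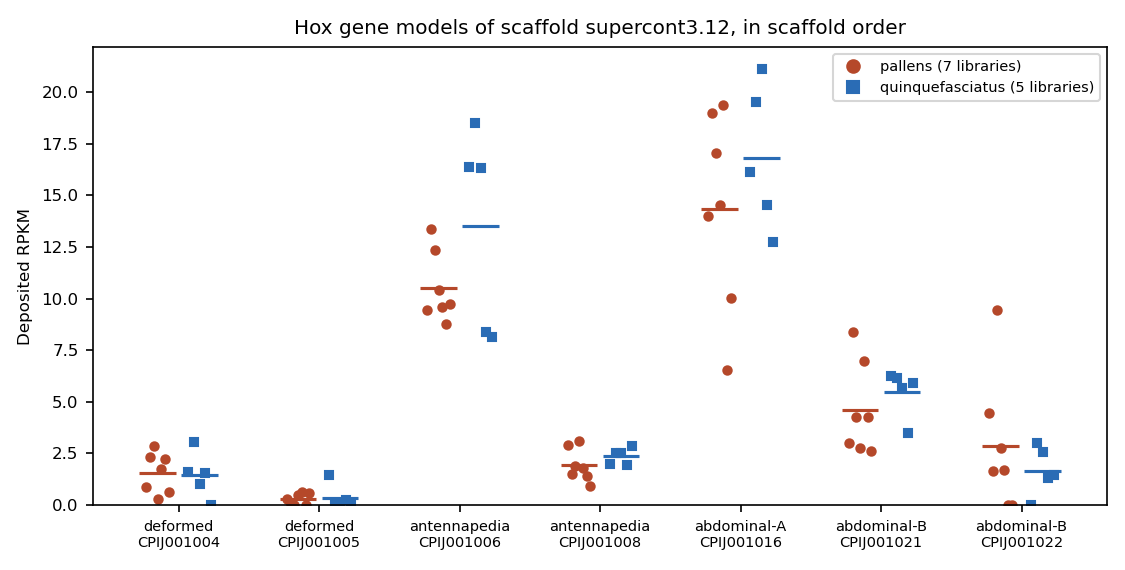
Deposited RPKM of the 7 Hox models on supercont3.12 in their order along the scaffold, 1 point per library, with pallens left of quinquefasciatus and a line at the mean of each. Abdominal-A (CPIJ001016) and antennapedia (CPIJ001006) stand above the rest at means of 15.4 and 11.8 RPKM, and the deformed models are lowest or near it, at 1.51 and 0.303 RPKM.

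Some relatives of the Hox genes escaped the words of the rule, and they were looked up after their values were seen. The segmentation factor fushi tarazu (CPIJ001007), which lies among the antennapedia models on supercont3.12, had 2 reads over the 12 libraries, and even-skipped (CPIJ013533) had 22. Another abdominal-B model (CPIJ001023) had 79 reads, at 1.69 ± 0.476 CPM in pallens, against 1.07 ± 0.527 CPM in quinquefasciatus, and was not tested.

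The remaining 47 homeobox models were the largest family. Only 11 were tested, 6 with a positive and 5 with a negative change and a median of 0.09. An unadjusted p under 0.05 was found for 3 of the 11 (homothorax, prospero/prox-1 and CPIJ002050), beside 13.0% of all genes tested. The median of the mean RPKM over the 47 models was 0.623, and the highest was that of prospero/prox-1. Spalt-major (CPIJ015319), a zinc finger protein that was matched by the word homeotic and shapes trachea and wing in *Drosophila*, varied widely within both subspecies. It had 19.0, 33.2 and 80.0 CPM in the lowest, median and highest pallens libraries, against 18.0, 34.0, 59.7, 21.4 and 45.1 CPM in quinquefasciatus 1 to 5. Its highest pallens values were in pallens 2, 3 and 5, the libraries with the highest cuticle sums in pallens. In quinquefasciatus the highest values were in quinquefasciatus 3 and 5, with low cuticle sums of 4373 and 2465, and not in quinquefasciatus 2, with the high sum of 22323. The part of the moult in these values was not tested. The log2 change was 0.35 (SE 0.40).

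Other homeobox factors with known tissue roles did not pass the test. Onecut (CPIJ006386), a neuronal factor, averaged 23.5 ± 10.0 CPM in pallens, against 18.2 ± 6.45 CPM in quinquefasciatus (SD, n = 7 and 5), a log2 change of 0.37 (SE 0.32). The cdx model (CPIJ004813), from the caudal family of the hind end and gut, averaged 6.66 ± 3.32 CPM in pallens, against 7.76 ± 3.09 CPM in quinquefasciatus. Engrailed (CPIJ010220), which marks the rear of each segment, averaged 6.73 ± 1.73 CPM in pallens, against 6.25 ± 1.29 CPM in quinquefasciatus. Distal-less (CPIJ004949), which starts limb growth, averaged 3.32 RPKM from 91 reads and was not tested.

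Among paired box factors 2 of 5 were tested, both with a positive change. Pax-6 (CPIJ006382) had 19.5, 33.1 and 43.7 CPM in the lowest, median and highest pallens libraries, against 20.2, 39.9, 20.2, 11.3 and 23.6 CPM in quinquefasciatus 1 to 5. For Pax-6 the log2 change was 0.51 (SE 0.28, interval -0.09 to 1.11, adjusted p = 0.452 by edgeR), and quinquefasciatus 2 was the only library of its subspecies above the pallens median. The neighbouring Pax-6 model (CPIJ006390) averaged 7.06 ± 1.51 CPM in pallens, against 6.05 ± 1.43 CPM in quinquefasciatus, a change of 0.23 (SE 0.21). Onecut lies between these models on supercont3.123.

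Forkhead factors, which have a winged-helix domain, numbered 15, of which 7 were tested, with 3 positive and 4 negative changes and a median of -0.10. The most abundant, CPIJ002020, averaged 71.1 ± 27.0 CPM in pallens, against 62.5 ± 10.7 CPM in quinquefasciatus, and the value of 126 CPM in pallens 7 was the highest. Its log2 change was 0.19 (SE 0.24), and -0.01 without pallens 7. Forkhead CPIJ010485 averaged 16.1 ± 6.49 CPM in pallens, against 19.2 ± 2.30 CPM in quinquefasciatus. Forkhead CPIJ016396 averaged 3.60 ± 0.912 CPM in pallens, against 2.50 ± 0.560 CPM in quinquefasciatus, a change of 0.52 (SE 0.25, adjusted p = 0.392). Forkhead box subgroup O (CPIJ016794), the factor held back by insulin signalling, averaged 13.2 ± 1.99 CPM in pallens, against 15.5 ± 3.42 CPM in quinquefasciatus, a change of -0.23 (SE 0.17).

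The hairy and achaete-scute factors are basic helix-loop-helix proteins, and all 3 were tested. Hairy protein CPIJ005756 had 4.10, 5.83 and 7.85 CPM in the lowest, median and highest pallens libraries, against 5.16, 4.43, 3.57, 3.84 and 3.41 CPM in quinquefasciatus 1 to 5. Its log2 change was 0.46 (SE 0.21, interval 0.01 to 0.91, adjusted p = 0.380 by edgeR), from 13 to 40 reads a library. Protein hairy (CPIJ004757) averaged 29.4 ± 6.96 CPM in pallens, against 35.6 ± 6.89 CPM in quinquefasciatus, a change of -0.27 (SE 0.20). Achaete-scute complex protein T3 (CPIJ018670), a factor that lets cells become nerve precursors, had 5.10 to 17.5 CPM in pallens, against 12.2, 6.33, 32.2, 11.3 and 20.7 CPM in quinquefasciatus 1 to 5. Its change of -0.56 (SE 0.39, adjusted p = 0.543) rests on quinquefasciatus 3 in large part, being -0.16 without that library.

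T-box factors, which act in heart and appendages, numbered 8, all read in every library, of which 5 were tested with a median of 0.14. Tbx20 (CPIJ007739) had a log2 change of -0.37 (SE 0.22) and H15 (CPIJ000433) of -0.01 (SE 0.21, interval -0.45 to 0.44). The gene bobby sox protein averaged 52.0 ± 9.96 CPM in pallens, against 56.6 ± 7.14 CPM in quinquefasciatus, a change of -0.12 with an interval of -0.48 to 0.24, and SOX-19 (CPIJ007851) a change of 0.10 (SE 0.28). Of 4 POU models, 1 was tested, CPIJ003415, with a change of -0.17 (SE 0.21), and its neighbour CPIJ003414 had 74 reads in all. Runt (CPIJ001309), a pair-rule factor, had a change of -0.33 (SE 0.26, interval -0.88 to 0.22).

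**Figure D5:**
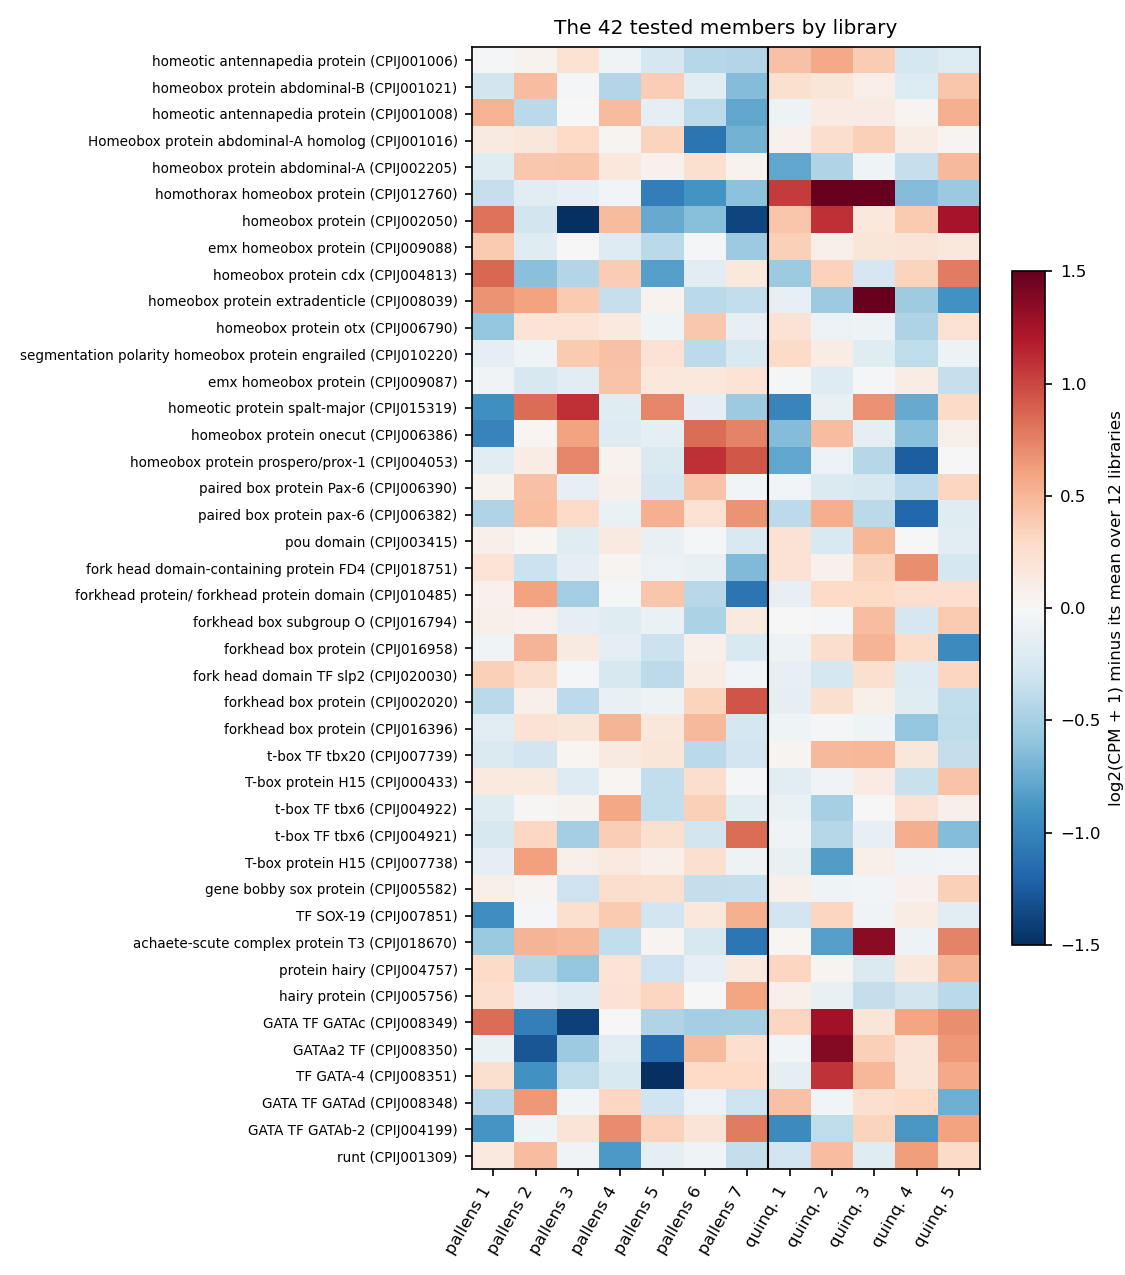
Log2(CPM + 1) of the 42 tested factors in each library, less the factor's mean over the 12 libraries, with pallens left of the line and quinquefasciatus right of it. Colours stop at 1.5 above or below the mean, and larger values take the end colour. In no row are the subspecies fully apart, and single libraries stand out, such as quinquefasciatus 2 in 3 of the GATA rows.

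The 57 factors that were not tested had 2026 reads in all, and 15 of them were read in every library. The largest count in a library was 30, for forkhead box protein CPIJ007160 in pallens 2. Its neighbour on supercont3.143, CPIJ007159, had 17 and 14 reads in pallens 6 and 7, 11 in pallens 2, and 4, 9, 1, 0 and 0 in quinquefasciatus 1 to 5. Both had most of their reads in pallens 2, 6 and 7. With no filter on low counts CPIJ007159 had a log2 change of 1.61 and an adjusted p of 0.409, and no factor was called.

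The pathways in which these factors act were also without a call by edgeR. They were gathered by description words, which also catch some entries of other function. Of 11 segmentation zinc finger models 7 were tested, with 3 positive and 4 negative changes and a median log2 change of -0.14. The corresponding values were 12 of 20 tested with a median of -0.05 for other basic helix-loop-helix factors, 17 of 29 and 0.00 for the Notch list, 12 of 23 and -0.05 for the Wnt list, and 5 of 5 and -0.06 for the Hedgehog list. They were 15 of 20 and 0.06 for the TGF-beta and Dpp list, 6 of 11 and 0.31 for the EGF and FGF receptor list, 16 of 24 and 0.10 for Polycomb and Trithorax, and 15 of 26 and 0.01 for nuclear receptors. By edgeR 0 genes of the 8 pathway lists were called and 9 of the 90 tested reached an unadjusted p under 0.05. Among 15 tested nuclear receptors 0 were called and 2 reached it. Over all genes tested, 0.537% were called and 13.0% reached it. DESeq2 called 0 nuclear receptors and 3 of the 143 pathway genes, beside 2.35% of all genes to which it gave an adjusted p. How many of the 143 had such a p is not given here, so the shares may not have the same base. The 3 called are Wnt inhibitory factor 1 and, named here after their values were seen, disheveled-associated activator of morphogenesis 2 (CPIJ002006) and serrate protein (CPIJ012999). The last pair had too few reads for the edgeR test: CPIJ002006 had 116 reads over the pallens libraries, against 17 over the quinquefasciatus libraries (DESeq2 adjusted p = 0.0149), and CPIJ012999 had 74, against 7 (DESeq2 adjusted p = 0.0109).

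The smallest p in these lists belonged to Wnt inhibitory factor 1 (CPIJ003761), a secreted protein that holds back Wnt ligands in vertebrates. It had 30.5, 35.4 and 45.7 CPM in the lowest, median and highest pallens libraries, against 28.5, 24.5, 26.1, 28.8 and 24.6 CPM in quinquefasciatus 1 to 5, and these did not overlap. The log2 change was 0.53 (SE 0.15, adjusted p = 0.138 by edgeR), on means of 38.3 ± 6.07 CPM in pallens, against 26.5 ± 2.06 CPM in quinquefasciatus (SD, n = 7 and 5). Enhancer of polycomb (CPIJ010217), a chromatin protein, averaged 25.9 ± 7.51 CPM in pallens, against 14.5 ± 5.31 CPM in quinquefasciatus, a change of 0.83 (SE 0.26, adjusted p = 0.201). Odd skipped (CPIJ010649), a pair-rule zinc finger factor, averaged 6.51 ± 0.889 CPM in pallens, against 9.18 ± 3.01 CPM in quinquefasciatus, a change of -0.49 (SE 0.21, adjusted p = 0.353). The smallest p in the Hedgehog list was that of dispatched (CPIJ008642), which releases the Hedgehog ligand, with a log2 change of 0.37 (SE 0.15, adjusted p = 0.323), and in the EGF and FGF receptor list that of the inhibitor sprouty (CPIJ009233), at 0.49 (SE 0.25, adjusted p = 0.422). In the Notch list it was radical fringe (CPIJ010821), which modifies Notch with sugars, at 0.29 (SE 0.18, adjusted p = 0.4996). In 3 lists the smallest p fell on an entry that the words caught without its being a factor or receptor of that list: n-myc downstream regulated (CPIJ001352, log2 change -0.33, adjusted p = 0.527), transforming growth factor beta regulated gene 1 (CPIJ014735, 0.49, adjusted p = 0.426) and a retinoid-inducible serine carboxypeptidase (CPIJ002911, -1.18, adjusted p = 0.216).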

How the data were processed

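Poly(A) RNA of 12 pools of 30 *Culex* larvae was sequenced without strand information, per the labels' protocols. The authors deposited for each library, per the file headers, the count of uniquely mapped reads per gene model, its length, the covered share of the model in percent, and RPKM. RPKM equalled count over length and library total in 12 of 12 libraries. No aligner, counter or build name is given in the sources used here. Models missing from a library's table were set to 0. Positions are those of the files, on scaffolds named supercont3, and model names are given without the suffix -RA. Exons are not given, and 89.2% of the lengths are multiples of 3, so lengths are mostly coding length. The RefSeq table at hand belongs to another assembly and holds none of these names, so no sequences are shown. Only uniquely mapped reads were counted, so reads of near-identical copies could be lost, and reads of overlapping genes on opposite strands cannot be told apart.

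Counts of all models were tested in R 4.3.3 with edgeR 4.0.16 (TMM normalization, filterByExpr with a minimum count of 10, robust quasi-likelihood test, pallens minus quinquefasciatus over 12 libraries), with Benjamini-Hochberg adjustment over the 10617 genes kept. Calls were made at an adjusted p under 0.05. Means are given with SD, CPM is TMM-normalized, and intervals are 95% t intervals of the fit. The common biological coefficient of variation was 42.0%. Limits from a count of 0 cover counting error only. Alternatives were other normalizations and filters, DESeq2 1.42.0, limma 3.58.1 (voom, and on log2 RPKM), and libraries left out. The members, lists and tests were chosen with earlier results of these data known. Factors named are those with the 8 smallest p, the 2 highest mean RPKM of each family, the 6 with the largest spread within a subspecies at a mean log2 CPM of at least 3, all Hox models and any called or fully apart. In the pathway and marker lists they are the smallest p of a list. The rest were chosen after their values were seen.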

Additional observations from a re-analysis of the deposited data

Results flagged for a closer look

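Among 52 groups (26 named and tested factors in each subspecies), 1 library stood apart from the others of its group. Forkhead CPIJ010485 had 15.1 CPM in quinquefasciatus 1, from 79 reads, while the other quinquefasciatus libraries lay between 19.9 and 20.5 CPM. In pallens the same factor ran between 7.26 and 25.8 CPM, so the low value is within the range of the other subspecies. Chance alone flags about 1 in 20 such groups.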

How the results depend on the processing

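The number of factors called was 0 in the main test, 1 with DESeq2, 2 without both pallens 1 and quinquefasciatus 5, and 0 to 1 with each library left out. Calls over all genes were also more frequent in these settings: 0.537% in the main test, 2.35% with DESeq2, 3.40% without both libraries, 2.18% without pallens 1 (which called GATAc) and 1.93% without quinquefasciatus 5 (which called homothorax). Pallens 1 and quinquefasciatus 5 were the closest pair across the subspecies, so calls made without both are no separate support for a difference. The causes were not tested. With each library left out, factors at an unadjusted p under 0.05 numbered 3 to 10 (1 to 3 higher and 1 to 7 lower in pallens), GATA factors among them 0 to 3, factors fully apart 0 to 2 and pathway genes called 0 to 1. The low of 3 and the 0 for GATA came without quinquefasciatus 2, the high of 10 without pallens 1. In the main test 7 of 42 factors, or 16.7%, reached that p, beside 13.0% of all genes tested. Without pallens 1, 2 of 41 factors were fully apart, beside 2.99% of all genes. With libraries left out, the share of all genes at that p is not given here, so the counts of factors at it have no background. Without both pallens 1 and quinquefasciatus 5, 2 pathway genes were called and 4 of 41 factors were fully apart, beside 5.88% of all genes (1.22% in the main test). Without both pallens 6 and 7, 3 factors were lower at an unadjusted p under 0.05 and 1 was fully apart, with no share over all genes given here. Factors higher at an unadjusted p under 0.05 were 2 of 42 in the main test, beside 6.55% of all genes tested. They were 5 of 99 with DESeq2 and with no filter, and 1 with library totals alone, voom and both RPKM fits. For these settings no share of all genes in that direction is given here, so the counts are not a result about the factors. In either direction DESeq2 had 10 of 99 factors at that p, beside 11.6% of all genes, and it called 3 pathway genes. The median log2 change, -0.11 in the main test, was positive with DESeq2 (0.09) and with no filter (0.06). Those 2 medians are over all 99 factors and not over the 42 of the main test, so they do not compare methods on the same genes. The median was also positive with log2(RPKM + 0.1) (0.005) and without quinquefasciatus 3 (0.03), so its sign is not settled.

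The change turned its sign under at least 1 alternative for 9 of the 42 tested factors, none with a main change beyond 0.242 in size, and for 33 it did not. H15 (CPIJ000433) did so with upper quartile scaling (0.019), library totals (0.050), at least 10 reads per library (0.012), voom (0.023), log2(RPKM + 1) (0.039), log2(RPKM + 0.1) (0.046) and without both pallens 1 and quinquefasciatus 5 (0.10), and it ran between -0.099 and 0.13 with single libraries left out. Without both pallens 6 and 7 the changes were 0.025 for abdominal-A (CPIJ001016), -0.11 for CPIJ002020 and -0.053 for SOX-19. With single libraries left out CPIJ002020 ran between -0.0087 and 0.27 and SOX-19 between -0.011 and 0.23. Homothorax and GATAc were the only factors called under any of the 24 alternatives.

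Depth set a limit: the 57 factors that were not tested averaged 9.25 reads a library or fewer. No paired analysis was possible because the labels number no replicates, and the numbers used here follow the order of deposition.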
